A study of Homo sapiens with 4 samples.

Results

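The core genes of the RAS, RAF, MEK and ERK cascade were followed across 4 RNA-seq libraries of human ovarian cancer cells. The 7 genes were chosen by name as NRAS, HRAS, ARAF, BRAF, MAP2K1, MAP2K2 and MAPK3, and all 7 were found among the 52402 gene symbols of the count tables. A count above 0 was present for 6 of them, since HRAS was listed at 0 throughout. The study knocked out with CRISPR-Cas9 the envelope (env) gene of HERV-K119, 1 of the HERV-K retroviral copies that the human genome carries, in the epithelial ovarian cancer lines SKOV3 and OVCAR3. The 4 groups were SKOV3 env knockout (KO), SKOV3 mock control, OVCAR3 env KO and OVCAR3 mock control, with 1 library per group. Both lines were grown in RPMI 1640 with 10% fetal bovine serum. Mock and KO cells alike received hygromycin at 100 µg/mL for 2 days, starting about 18 h after transfection. Whether a KO culture was a single clone or a pool is not given in the labels. The targeted provirus was not analysed here, so RNA gives no check of the knockout.

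In this cascade, receptors at the cell surface lead RAS proteins, small GTPases at the membrane, to bind GTP and recruit RAF kinases. RAF phosphorylates MEK, MEK phosphorylates ERK, and active ERK phosphorylates kinases in the cytosol and transcription factors in the nucleus. The pathway is known for driving proliferation in epithelial tumours and is activated by mutation in several of them, low-grade serous ovarian carcinoma among them. NRAS and HRAS encode RAS proteins, ARAF and BRAF encode RAF kinases, MAP2K1 and MAP2K2 encode MEK1 and MEK2, and MAPK3 encodes ERK1. Since the cascade works through phosphorylation, the RNA levels given here describe the supply of its parts and not its activity.

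Total counts ran from 15145483 to 22057693 per library. The OVCAR3 KO library stood apart from the other 3. Mitochondrial transcripts took 21.9% of its counts, against 5.16% to 5.93% in the others. Of 4 nuclear-retained RNAs, 3 were measured in the OVCAR3 pair and all 3 were higher in KO, NEAT1 among them at 1612 CPM in OVCAR3 KO against 142 CPM in OVCAR3 mock. CPM here are counts set relative to library size and scaled between libraries by TMM, the trimmed mean of M values. The cells carried epithelial RNA in all 4 libraries, with a summed level of 9 epithelial markers of 5176 CPM in SKOV3 KO, 5569 CPM in SKOV3 mock, 2104 CPM in OVCAR3 KO and 7627 CPM in OVCAR3 mock. WT1 was at 0 in all 4. The markers of other cell types were low: 6 fibroblast markers summed to between 17.7 and 35.2 CPM with COL3A1 and LUM at 0, 5 endothelial markers to between 0.576 and 3.33 CPM, and 6 leukocyte markers to between 9.98 and 35.7 CPM with CD3E and PTPRC listed at 0. Of 6 genes listed as distinguishing SKOV3 and OVCAR3, some went with the line labels and some did not. MUC16, which encodes the serous carcinoma antigen CA125, went with them, at 6.18 CPM in OVCAR3 KO and 2.74 CPM in OVCAR3 mock, against 0.063 CPM in SKOV3 KO and 0.044 CPM in SKOV3 mock. PAX8, a Müllerian transcription factor, was at 3.33 CPM in OVCAR3 KO and 8.83 CPM in OVCAR3 mock, against 5.64 CPM in SKOV3 KO and 4.74 CPM in SKOV3 mock. VIM was between 0.95 and 2.35 CPM in all 4 libraries, and WT1 was at 0. ERBB2, which is amplified in SKOV3, was at 32.0 CPM in OVCAR3 KO and 73.3 CPM in OVCAR3 mock, and at 55.7 CPM in SKOV3 KO and 58.5 CPM in SKOV3 mock. CDKN2A, which SKOV3 is known to lack, was at 34.1 CPM in OVCAR3 KO and 50.5 CPM in OVCAR3 mock, and at 91.2 CPM in SKOV3 KO and 90.6 CPM in SKOV3 mock. Line names below therefore stand for the library labelled with that name.

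The levels of the 6 measured genes within each library were compared per kilobase of exon, with brackets giving 95% intervals that cover counting error only. In the SKOV3 KO library, NRAS stood first at 32.9 CPM per kilobase (31.5 to 34.2), followed by MAP2K2 at 22.7, ARAF at 14.8, MAP2K1 at 13.2, MAPK3 at 8.97 and BRAF at 1.76. The intervals of ARAF and MAP2K1 overlapped there, and no other neighbours in the order did. In SKOV3 mock the order was NRAS at 37.7, MAP2K2 at 21.8, MAP2K1 at 17.1, ARAF at 15.7, MAPK3 at 9.52 and BRAF at 1.85 CPM per kilobase, with MAP2K1 and ARAF overlapping. The OVCAR3 KO library also had NRAS first, at 36.4 CPM per kilobase. Behind it came MAP2K2 at 10.9 and MAP2K1 at 10.8, which overlapped, then MAPK3 at 8.32, ARAF at 5.13 and BRAF at 2.15. OVCAR3 mock was the only library with MAP2K2 first, at 35.8 CPM per kilobase (34.5 to 37.1), ahead of NRAS at 27.3, MAP2K1 at 21.8, ARAF at 13.9, MAPK3 at 13.5 and BRAF at 2.10. ARAF and MAPK3 overlapped in OVCAR3 mock. BRAF was last in all 4 libraries. Its place rests on an exon length of 23432 bases over all its annotated transcripts, and with the longest single transcript (9578 bases) it was still last, at between 4.30 and 5.26 CPM per kilobase. The same choice put MAP2K2 above NRAS in both SKOV3 libraries, at 40.5 against 32.9 CPM per kilobase in KO and at 38.9 against 37.7 in mock, where the intervals overlapped.

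**Figure D1:**
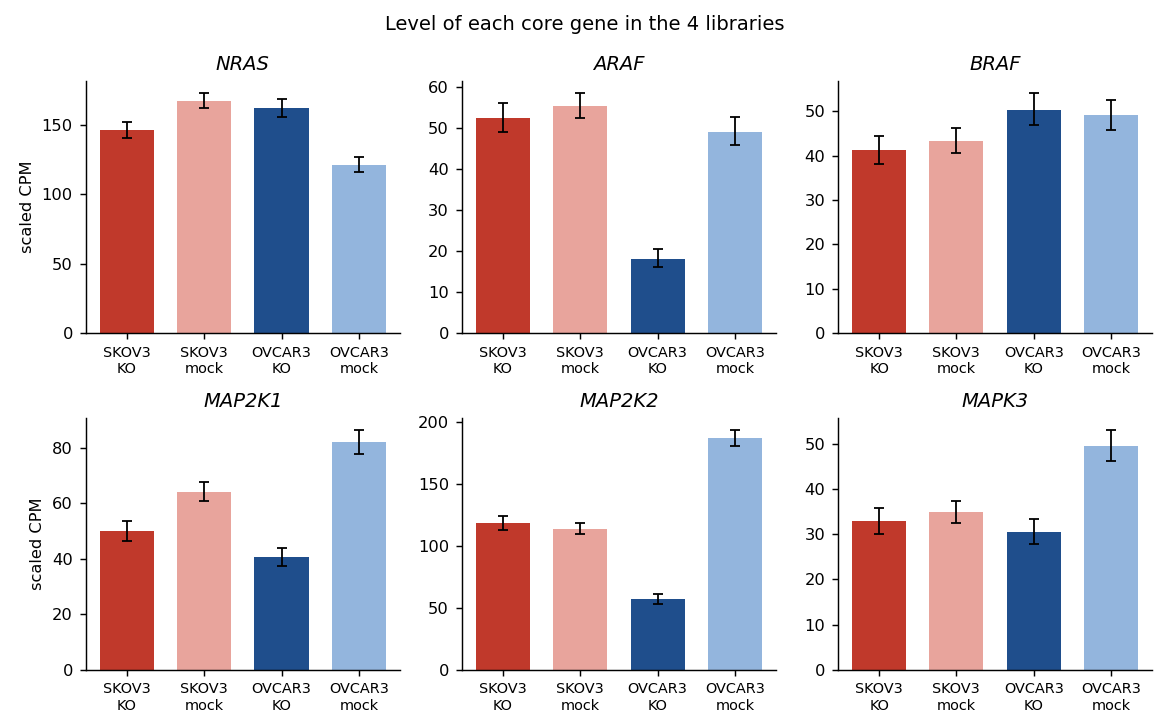
Scaled CPM (y axis, from 0) of the 6 measured core genes in the SKOV3 KO, SKOV3 mock, OVCAR3 KO and OVCAR3 mock libraries (x axis), 1 library per bar, with 95% counting intervals as error bars. ARAF, MAP2K1 and MAP2K2 are lowest in OVCAR3 KO, at 18.1, 40.5 and 57.1 CPM, and MAPK3 is highest in OVCAR3 mock, at 49.7 CPM.

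NRAS (chromosome 1, 114704469 to 114716771, minus strand, GRCh38.p14) had 146 CPM in SKOV3 KO against 168 CPM in SKOV3 mock, and 162 CPM in OVCAR3 KO against 121 CPM in OVCAR3 mock. Its KO library was thus the lower of the pair in SKOV3 and the higher in OVCAR3. The log2 ratio of KO over mock was -0.20 (-0.27 to -0.12) in SKOV3 and 0.42 (0.33 to 0.51) in OVCAR3. The OVCAR3 ratio was -0.073 (-0.16 to 0.014) once a trend of the ratios with transcript GC content and length was removed, as described below. Ratios carry a prior count of 2, and with 1 library per group the ratios of a line have no replicate behind them and get no p-value. In such bulk libraries, fewer cells that carry a transcript and less of it per cell cannot be told apart.

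HRAS (chromosome 11, 532242 to 535576, minus strand) stood in 2 rows of the tables, both at 0 in all 4 libraries, so no level, ratio or place in the order can be read for it. Other genes that cells express broadly and that also stood in several rows, such as ACTN4, EIF3K and EEF1B2, were listed at 0 as well. Not all genes in several rows were: PTDSS2 had 72 to 139 counts per library, LRRC56 had 22 to 41 and RNH1 had 6 to 15. Of the protein-coding symbols in several rows, 47.6% were at 0 in all 4 libraries, against 13.4% of those in 1 row. A library level of HRAS RNA was not measurable from these tables.

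The RAF genes separated in OVCAR3. ARAF (chromosome X, 47561205 to 47571908, plus strand) had 52.5 CPM in SKOV3 KO, 55.4 CPM in SKOV3 mock, 18.1 CPM in OVCAR3 KO and 49.1 CPM in OVCAR3 mock. The OVCAR3 KO library alone was low. The log2 ratio was -0.08 (-0.21 to 0.05) in SKOV3 and -1.43 (-1.64 to -1.24) in OVCAR3, a level 2.70-fold lower in OVCAR3 KO. BRAF (chromosome 7, 140713328 to 140924929, minus strand), the RAF kinase most often mutated in cancer, had 41.2 CPM in SKOV3 KO, 43.4 CPM in SKOV3 mock, 50.4 CPM in OVCAR3 KO and 49.1 CPM in OVCAR3 mock. Its log2 ratio was -0.07 (-0.22 to 0.07) in SKOV3 and 0.04 (-0.11 to 0.18) in OVCAR3, and both intervals include 0. BRAF shares 1239 exon bases with NDUFB2 on the opposite strand. The strand setting of the counting is not given in the sources used here, so reads of that stretch may have been counted for either gene.

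The MEK genes were lower in OVCAR3 KO. MAP2K1 (chromosome 15, 66386912 to 66491544, plus strand) had 49.8 CPM in SKOV3 KO, 64.1 CPM in SKOV3 mock, 40.5 CPM in OVCAR3 KO and 81.9 CPM in OVCAR3 mock. Its KO library lay below mock by more than its counting interval in both lines, with log2 ratios of -0.36 (-0.49 to -0.24) in SKOV3 and -1.01 (-1.16 to -0.88) in OVCAR3. In SKOV3, 6.62% of the 13524 measured genes had a lower ratio. On the opposite strand, MAP2K1 shares 432 exon bases with AC116913.1 and 216 with SNAPC5. MAP2K2 (chromosome 19, 4090321 to 4124122, minus strand) had 119 CPM in SKOV3 KO, 114 CPM in SKOV3 mock, 57.1 CPM in OVCAR3 KO and 187 CPM in OVCAR3 mock. Its SKOV3 ratio of 0.06 (-0.03 to 0.14) was within counting error of 0, while its OVCAR3 ratio of -1.71 (-1.83 to -1.60), 3.28-fold lower in KO, was the lowest of the 6 genes. Only 4.78% of the 15560 genes measured in OVCAR3 had a lower one.

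MAPK3, the ERK gene of the set (chromosome 16, 30114105 to 30123220, minus strand), had 32.9 CPM in SKOV3 KO, 34.9 CPM in SKOV3 mock, 30.5 CPM in OVCAR3 KO and 49.7 CPM in OVCAR3 mock. OVCAR3 mock was the high library, and the other 3 lay close together. The log2 ratio was -0.09 (-0.25 to 0.08) in SKOV3 and -0.70 (-0.87 to -0.53) in OVCAR3. Pseudogenes named for ARAF, BRAF and MAP2K1 were at 0 in all 4 libraries.

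Counted over the 6 measured genes, SKOV3 KO and mock differed little. None was past 2-fold in either direction, where 0.799% of all measured genes were 2-fold higher and 0.739% were 2-fold lower. The counting interval lay below 0 for 2 of 6 genes (NRAS and MAP2K1), against 18.1% of measured genes, and above 0 for none, against 17.6%. With the GC and length trend removed, the SKOV3 interval lay below 0 for 4 of 6 genes (NRAS, ARAF, MAP2K1 and MAPK3), against 21.2% of protein-coding genes, and above 0 for none, against 15.8%. The median log2 ratio of the 6 was -0.08, beside 0.005 over all measured genes, and -0.15 with the trend removed. In OVCAR3, 3 of 6 genes (ARAF, MAP2K1 and MAP2K2) were at least 2-fold lower in KO, where 15.4% of measured genes were, and none was 2-fold higher, where 22.5% were. The core genes are all protein-coding, and of 12723 measured protein-coding genes 2309 were 2-fold lower and 1655 were 2-fold higher. The interval lay below 0 for 4 of 6 genes, against 34.9% of measured genes, and above 0 for 1 of 6, against 44.8%. Among the 12723 protein-coding genes it lay below 0 for 5257 and above 0 for 4916. The median of the 6 was -0.86, beside 0.16 over all measured genes and -0.02 over protein-coding genes.

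**Figure D2:**
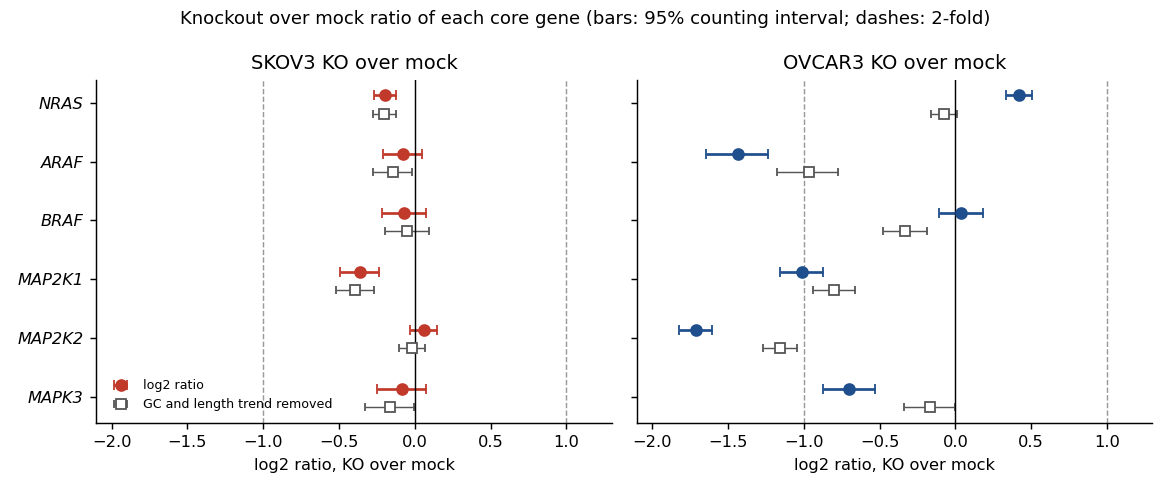
Log2 ratio of KO over mock (x axis) for the 6 measured core genes (y axis) in SKOV3 (left) and OVCAR3 (right), as filled points, and after removal of the GC and length trend, as open squares, with 95% counting intervals. All SKOV3 points lie between -0.36 and 0.06, while ARAF, MAP2K1 and MAP2K2 lie beyond the 2-fold line in OVCAR3, where only MAP2K2 (-1.16) stays beyond it after the trend is removed.

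GC content of the transcript moved with the ratio in OVCAR3. In 5 equal groups of protein-coding genes from low to high GC content, the median OVCAR3 log2 ratio was 0.47, 0.22, -0.18, -0.50 and -0.70, and Spearman's rho over 12491 genes was -0.42, a correlation across genes that share the same pair of libraries. In SKOV3, rho was 0.13. NRAS and BRAF, at 38.4% and 40.0% GC, belong to the first group. MAP2K1, at 50.4%, belongs to the third, and ARAF, MAP2K2 and MAPK3, at 58.9%, 60.9% and 61.4%, belong to the fifth. Within their own groups, 45.5% of genes had a lower OVCAR3 ratio than NRAS, 20.9% than BRAF, 17.9% than MAP2K1, 21.6% than ARAF, 14.3% than MAP2K2 and 50.04% than MAPK3. NRAS and MAPK3 thus lay near the middle of genes of like GC content, and MAP2K2 lay lowest. With a smooth trend on GC content and length removed, the OVCAR3 ratios were -0.97 for ARAF, -0.33 for BRAF, -0.80 for MAP2K1, -1.16 for MAP2K2 and -0.17 for MAPK3. Their median together with NRAS was -0.57, and 1 of 6 was 2-fold lower, where 12.3% of protein-coding genes were 2-fold lower and 12.0% were 2-fold higher after the same step. ARAF and MAPK3 then lay below 0 in SKOV3 too, at -0.15 (-0.28 to -0.02) and -0.16 (-0.33 to -0.0020). With the mitochondrial rows left out of the counts and of the scaling, 3 of 6 genes were 2-fold lower and the median was -0.86. TMM already trims extreme genes, so this step could change the ratios of the other genes little. It does not address what the high mitochondrial share of OVCAR3 KO reflects. The part of that share, and of the nuclear RNAs, in the OVCAR3 ratios was not tested.

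**Figure D3:**
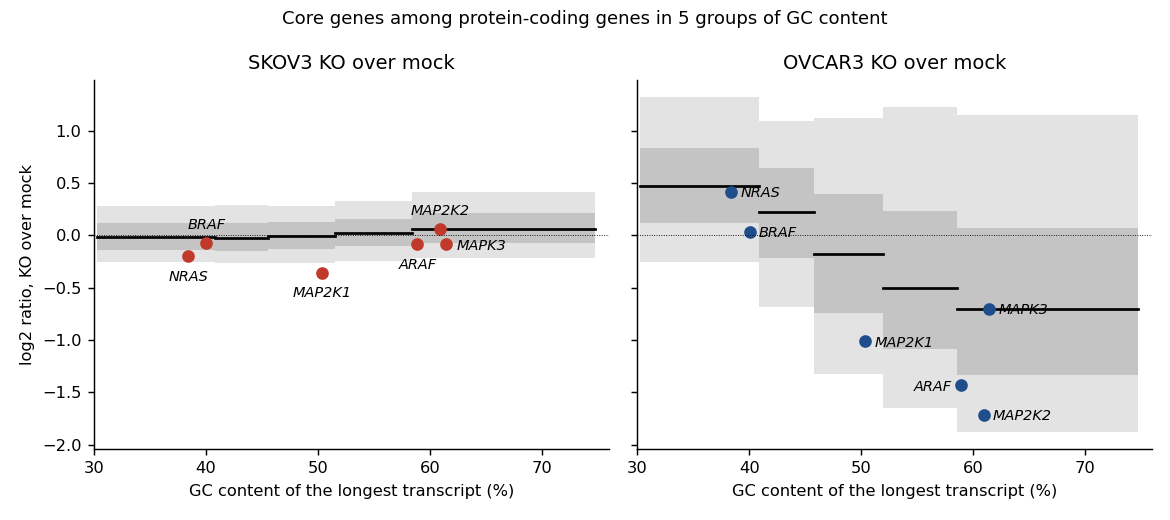
Log2 ratio of KO over mock (y axis) against the GC content of the longest transcript (x axis) in SKOV3 (left) and OVCAR3 (right). Grey bands give the 10th to 90th and 25th to 75th percentiles and black lines the median of protein-coding genes in 5 groups of GC content, and points are the core genes. The OVCAR3 medians step down from 0.47 to -0.70, and NRAS and MAPK3 lie near the median of their group.

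The sequences at the start of NRAS and MAP2K2, the core genes with the highest and the lowest OVCAR3 ratio, are shown for comparison. They span 250 bases before to 50 bases after the gene's start and are from RefSeq (GRCh38.p14), in which all 7 genes were found. The window listed for BRAF lies within the gene, away from the start given above, and is left out here. NRAS lies at chr1:114716722-114717021 and MAP2K2 at chr19:4124073-4124372, both on the minus strand, and both are written 5′ to 3′ along the gene. Capitals mark matches on either strand to GGGCGG, the core of the GC box bound by SP1 and related factors, to CACGTG, the E-box bound by MYC and MAX among others, and to CCGGAAG, the core of sites of ETS factors. No capital letters belong to more than 1 match.
NRAS: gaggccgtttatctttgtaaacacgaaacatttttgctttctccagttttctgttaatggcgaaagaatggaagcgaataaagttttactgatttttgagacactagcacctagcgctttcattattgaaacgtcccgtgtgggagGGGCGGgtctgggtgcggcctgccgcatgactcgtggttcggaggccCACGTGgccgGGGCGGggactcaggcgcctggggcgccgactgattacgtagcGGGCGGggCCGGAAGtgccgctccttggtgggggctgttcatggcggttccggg
MAP2K2: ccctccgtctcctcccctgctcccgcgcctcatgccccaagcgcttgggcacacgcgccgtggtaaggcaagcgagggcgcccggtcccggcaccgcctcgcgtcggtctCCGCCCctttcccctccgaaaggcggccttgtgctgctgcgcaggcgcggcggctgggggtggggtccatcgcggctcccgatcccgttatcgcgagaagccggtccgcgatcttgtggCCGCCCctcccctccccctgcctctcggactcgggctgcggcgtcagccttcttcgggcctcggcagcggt
GGGCGG was matched 3 times in NRAS and 2 times in MAP2K2, and 45.0% of 35116 such windows held at least 1 match. CACGTG was matched once each in NRAS and MAPK3, and CCGGAAG once each in NRAS and HRAS, and neither in MAP2K2, MAP2K1 or ARAF. They occur in 7.26% and 10.3% of windows. TGACGTCA, the site of CREB family factors, occurs in 1.85% of windows and was matched in none of the 6 windows. GGGCGG was matched 5 times in HRAS, 3 times in MAP2K1 and 8 times in MAPK3, and it was not matched in ARAF. The GC content of the window was 57.3% in NRAS, 60.3% in ARAF, 72.0% in MAP2K1, 73.7% in MAP2K2, 78.0% in HRAS and 80.7% in MAPK3. A match is only a run of letters, and binding was not measured here.

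The balance between genes of one step was taken as the ratio of their counts in a library, which needs no scaling between libraries. It is not a ratio of levels per length, so it is compared between libraries only. BRAF over ARAF counts were 0.786 in SKOV3 KO and 0.783 in SKOV3 mock, a log2 shift of 0.01 (-0.19 to 0.20). In OVCAR3 the ratio was 2.78 in KO and 1.00 in mock, a log2 shift of 1.47 (1.22 to 1.73) toward BRAF. MAP2K1 over MAP2K2 counts were 0.420 in SKOV3 KO and 0.563 in SKOV3 mock, a log2 shift of -0.42 (-0.58 to -0.27). In OVCAR3 this ratio was 0.710 in KO and 0.437 in mock, a log2 shift of 0.70 (0.52 to 0.88). The MEK balance thus moved toward MAP2K2 in SKOV3 KO and toward MAP2K1 in OVCAR3 KO. With the GC and length trend removed, the OVCAR3 shifts were 0.64 (0.39 to 0.89) for the RAF pair and 0.36 (0.18 to 0.54) for the MEK pair. A shift between NRAS and HRAS could not be computed.

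**Figure D4:**
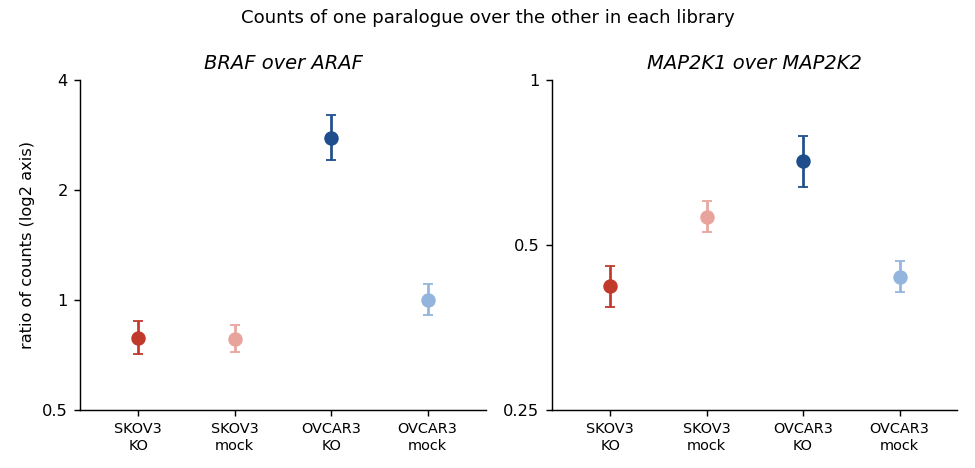
Counts of BRAF over ARAF (left) and of MAP2K1 over MAP2K2 (right) in each library, on a log2 y axis, with exact 95% counting intervals. The RAF ratio is 2.78 in OVCAR3 KO and between 0.783 and 1.00 in the other 3 libraries, and the MEK ratio is lower in KO than in mock in SKOV3 and higher in KO than in mock in OVCAR3.

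The KO ratios differed between the lines by more than counting error for 5 of 6 genes. The share of all genes that did so was not computed, so this count is not read as particular to the core genes. In OVCAR3 alone, the counting interval lay above 0 for 44.8% of measured genes and below 0 for 34.9%. The OVCAR3 log2 ratio minus the SKOV3 log2 ratio was 0.61 (0.50 to 0.73) for NRAS, -1.36 (-1.60 to -1.12) for ARAF, -0.65 (-0.84 to -0.46) for MAP2K1, -1.77 (-1.91 to -1.63) for MAP2K2 and -0.62 (-0.85 to -0.38) for MAPK3. For BRAF it was 0.11 (-0.10 to 0.32). With the GC and length trend removed in each line, the difference was near 0 for MAPK3, at -0.0083 (-0.24 to 0.23), and was 0.13 (0.012 to 0.24) for NRAS and -0.28 (-0.49 to -0.078) for BRAF. It was -0.83 for ARAF, -0.41 for MAP2K1 and -1.14 for MAP2K2. Spread between cultures is not in these intervals, and with 1 library per group the difference itself could not be tested.

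With the lines as the only replicates, edgeR's quasi-likelihood test of the 4 libraries, blocked by line and with Benjamini-Hochberg adjustment over 13670 genes, called none of the core genes for the knockout. Over all genes, 0.0% were called higher and 0.0% were called lower at an adjusted p under 0.05. By edgeR, 140 genes had an unadjusted p under 0.05, and the DESeq2 Wald test also called 0 genes, with 412 at an unadjusted p under 0.05. None of the core genes was among the 140 or the 412. The log2 fold change of knockout over mock was -0.83 (SE 0.52, edgeR adjusted p = 0.956) for MAP2K2, -0.75 (SE 0.45, adjusted p = 0.956) for ARAF and -0.69 (SE 0.40, adjusted p = 0.956) for MAP2K1. KO lay below mock in both lines for ARAF and MAP2K1, and in 1 of 2 lines for MAP2K2. For ARAF the SKOV3 counting interval (-0.21 to 0.05) included 0 before the trend was removed. NRAS, at 0.11 (SE 0.43, edgeR adjusted p = 0.986), had opposite signs in the lines. MAPK3 had -0.39 (SE 0.40, edgeR adjusted p = 0.956), with KO below mock in both lines. Its SKOV3 counting interval (-0.25 to 0.08) also included 0 before the trend was removed. BRAF had -0.02 (SE 0.37, edgeR adjusted p = 0.998). The fit has 1 residual degree of freedom per gene, which is the difference of the KO effect between the lines. Since edgeR shares spread between genes, the SE of a gene does not rest on its own difference alone.

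The mock libraries differed for the core genes by less than 2-fold. OVCAR3 mock over SKOV3 mock gave log2 ratios of 0.72 (0.64 to 0.79) for MAP2K2, 0.51 (0.36 to 0.65) for MAPK3, 0.35 (0.25 to 0.46) for MAP2K1, 0.18 (0.04 to 0.32) for BRAF, -0.17 (-0.30 to -0.04) for ARAF and -0.47 (-0.54 to -0.39) for NRAS. The MEK and ERK genes were higher in OVCAR3 mock and NRAS was lower there. With the GC and length trend removed, these ratios were 0.38 for MAP2K2, 0.18 for MAPK3, 0.24 for MAP2K1 and 0.18 for BRAF. They were -0.43 for ARAF and -0.31 for NRAS. None of the 6 was past 2-fold, where 9.47% of measured genes were 2-fold higher in OVCAR3 mock and 5.52% were 2-fold lower. MAP2K1 and MAP2K2 thus lay above their SKOV3 mock level in OVCAR3 mock, and below their SKOV3 KO level in OVCAR3 KO. OVCAR3 KO over SKOV3 KO gave -0.30 (-0.45 to -0.14) for MAP2K1, -1.05 (-1.17 to -0.94) for MAP2K2 and -0.11 (-0.29 to 0.08) for MAPK3. ARAF gave -1.53 (-1.74 to -1.33) there. With the trend removed, OVCAR3 KO over SKOV3 KO was -0.17 for MAP2K1, -0.75 for MAP2K2 and -1.24 for ARAF. MAPK3 changed sign, to 0.19 (0.0056 to 0.38). These comparisons share libraries with the KO ratios above. In the 4-library fit the line term called 0.0293% of genes higher and 0.00732% lower in OVCAR3 at an adjusted p under 0.05, and none of the core genes. The lowest among them was ARAF at -0.85 (SE 0.45, edgeR adjusted p = 0.487).

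Genes around the cascade were described in 8 lists, by the count of measured members past 2-fold in OVCAR3, to be read against the 15.4% lower and 22.5% higher over all measured genes. Of the 12723 measured protein-coding genes, 2309 were lower and 1655 were higher. Counts with the GC and length trend removed are to be read against 12.3% lower and 12.0% higher among protein-coding genes. No list gene was called in the 4-library fit for the knockout or the line. Upstream of RAS, among 14 adaptors and exchange factors, 2 were 2-fold lower and 2 were 2-fold higher in OVCAR3 KO, with a median log2 ratio of -0.02. GRB2, the adaptor that brings the exchange factor SOS to receptors, had 93.5 CPM in OVCAR3 KO against 276 CPM in OVCAR3 mock, a log2 ratio of -1.56. RAPGEF1, an exchange factor for RAP1, had -1.49. FRS2, the docking protein of FGF receptors, had 1.18. RASGRP3 had 1.35 (0.56 to 2.43) from low levels, 2.51 CPM in OVCAR3 KO against 0.913 CPM in OVCAR3 mock. Of 6 measured GTPase-activating proteins, which switch RAS off, NF1 was higher at 62.0 CPM in OVCAR3 KO against 27.1 CPM in OVCAR3 mock (log2 ratio 1.19), and DAB2IP was lower at 24.8 CPM in OVCAR3 KO against 49.7 CPM in OVCAR3 mock. Their median was -0.08. With the GC and length trend removed, NF1 was 0.89 and DAB2IP was -0.34, so that neither was past 2-fold, and among the adaptors GRB2 was still 2-fold lower and RASGRP3 2-fold higher.

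Among the 8 enzymes and carriers that lipidate, move or degrade RAS, 3 were 2-fold lower in OVCAR3 KO and none was higher, with a median of -0.55. They were ZDHHC9, the palmitoyltransferase of RAS (-1.37), RCE1, the protease that trims its CAAX end (-1.19), and FNTB, a farnesyltransferase subunit (-1.04). With the trend removed, ZDHHC9 alone was 2-fold lower (-1.21), and RCE1 was -0.62 and FNTB -0.71. The prenyl-binding carrier PDE6D had 0.58. Of 9 other RAS-family GTPases, 1 was lower and 1 was higher, with a median of 0.02. RIT1, which can also engage RAF, had 31.0 CPM in OVCAR3 KO against 3.65 CPM in OVCAR3 mock, a log2 ratio of 3.05, and 2.63 with the trend removed. RRAS had -1.12, and -0.94 with the trend removed.

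Among 20 scaffolds, chaperones and regulators of RAF, MEK and ERK, 5 were 2-fold lower in OVCAR3 KO and none was higher, with a median of -0.45. These were CNKSR1 (-1.69), a scaffold at the membrane, PPP1CA (-1.26), a catalytic subunit of protein phosphatase 1, HSP90AB1 (-1.17), PEA15 (-1.12), which holds ERK in the cytosol, and CNKSR3 (-1.06). The inducible chaperone HSP90AA1 had 0.67, so the HSP90 pair differed in sign. The trend removed, 3 of the 5 (CNKSR1, CNKSR3 and HSP90AB1) were still 2-fold lower. Of 9 measured kinases and ETS factors phosphorylated by ERK, 4 were 2-fold lower and none higher, with a median of -0.77. MKNK2, which phosphorylates the cap-binding factor eIF4E, had 78.2 CPM in OVCAR3 KO against 309 CPM in OVCAR3 mock (log2 ratio -1.98). RPS6KA4 had -1.50, ELK1 had -1.31 and ELK3 had -1.09, while ELK4 had 0.65 and MKNK1 had 0.50. With the trend removed, MKNK2 and ELK3 were 2-fold lower, at -1.33 and -1.29, and RPS6KA4 and ELK1 were not, at -0.89 and -0.88.

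The 10 output genes of ERK held the lowest median of the 8 lists in OVCAR3, -1.21, and -0.80 with the trend removed. Of these, 6 were 2-fold lower and none was higher, and 5 were 2-fold lower with the trend removed. The low median was not particular to the output genes. The 8 measured epithelial markers, which are not among the 8 lists, had a lower OVCAR3 median of -1.38, and -0.96 with the trend removed. EPHA2, a receptor tyrosine kinase, had 101 CPM in OVCAR3 KO against 660 CPM in OVCAR3 mock (log2 ratio -2.70), and the ETS factor ETV5 had -2.14. The feedback inhibitor SPRY4 had 0.18. In the parallel MAPK cascades, 14 genes were measured, 2 were lower, 2 were higher and the median was 0.04. MAP2K3, a kinase that activates p38, had 29.8 CPM in OVCAR3 KO against 162 CPM in OVCAR3 mock (log2 ratio -2.44), beyond any core gene. MAP2K7, which activates JNK, had -1.29. MAPK15 had 4.08 from 103 counts in KO and 5 in mock. MAP2K6 had 1.67 (0.82 to 2.95) from low levels, 2.38 CPM in OVCAR3 KO against 0.670 CPM in OVCAR3 mock. With the trend removed, MAP2K3 was still 2-fold lower, MAP2K7 was not (-0.66), and MAPK15, MAP2K6 and MAPK11 were 2-fold higher. RASGRP3, FNTB, HSP90AB1, PEA15, CNKSR3, ELK1, ELK3 and MAP2K6 were named after their OVCAR3 values were seen.

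In SKOV3 the same lists moved little. Their medians lay between -0.12 and 0.01, and MAPK15, at 1.01 CPM in SKOV3 KO against 0.354 CPM in SKOV3 mock (log2 ratio 1.27, 0.21 to 2.95), was the only list gene past 2-fold. RAS processing had FNTB at 0.62, and the GTPase-activating protein RASA1 had -0.47. The scaffold CNKSR3 had -0.56 and HSP90AA1 had 0.28. Among ERK substrates, ELK3 and RPS6KA3 each had -0.45. Among output genes, DUSP6, the ERK phosphatase, had 108 CPM in SKOV3 KO against 149 CPM in SKOV3 mock (log2 ratio -0.46), PHLDA1 had -0.40 and SPRY2 had 0.47.

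**Figure D5:**
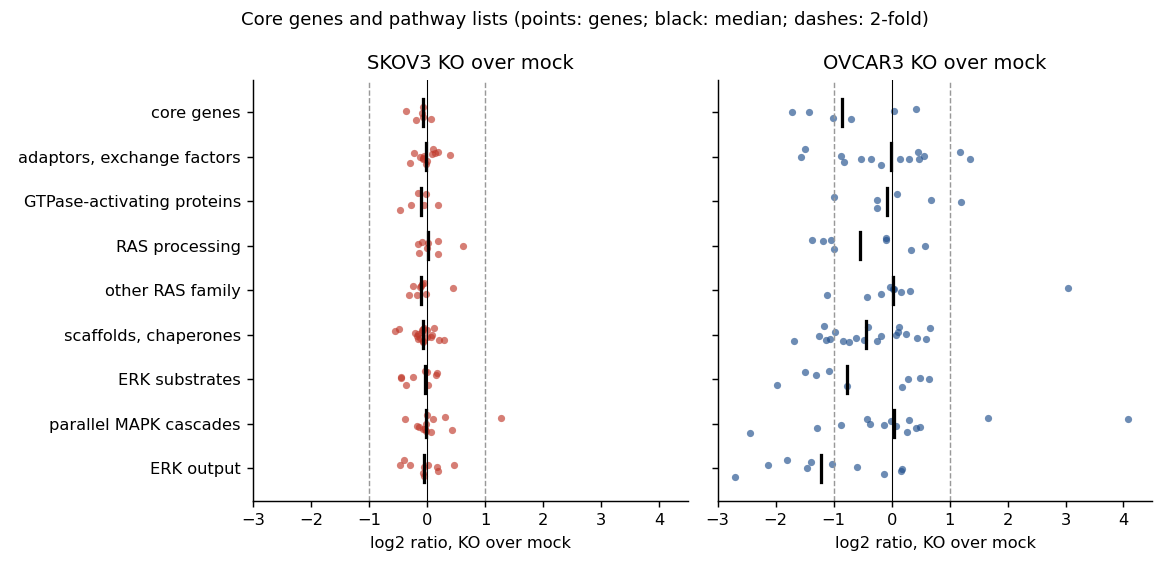
Log2 ratio of KO over mock (x axis) of the core genes and of the members of 8 pathway lists (y axis) in SKOV3 (left) and OVCAR3 (right), with 1 point per measured gene, black lines at the list medians and dashed lines at 2-fold. SKOV3 medians lie between -0.12 and 0.01, and in OVCAR3 the output genes have the lowest median, -1.21, and the core genes the next, -0.86. After removal of the GC and length trend the ERK substrates (-0.70) are below the core genes (-0.57).

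The genes whose profile over the 4 libraries was most like that of each core gene were sought among 9321 protein-coding genes by the distance between log2 CPM centred on each gene's own mean. NRAS was closest to UHRF1BP1L (distance 0.021) and PPCS (0.027), and BRAF to STRADA (0.018) and POMT2 (0.034). ARAF was closest to AXL (0.041) and PPP2R2A (0.064). MAP2K1 was closest to FHIT (0.049) and KDM1B (0.056), MAP2K2 to IGF2R (0.040) and QSOX1 (0.050), and MAPK3 to VANGL1 (0.050) and SGPP1 (0.050). No core gene was among the 2 closest of another, which with 9321 candidates says little about the core genes. These are distances over 4 libraries only, in log2 units.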

How the data were processed

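The deposited values are raw read counts per gene symbol, 1 table per library, made by the authors. TopHat and the build GRCh38 were used, per the submitters' processing notes. How reads were counted, on which annotation and with what use of strand, is not given in the sources used here. Libraries were made from total RNA with a strand-keeping kit (NEBNext Ultra II Directional), per the labels' protocols. Each table held 58173 rows, and rows with the same symbol (2687 symbols) were summed. Groups were taken from sample titles.

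Counts were scaled with TMM factors of edgeR 4.0.16 (R 4.3.3) from 13670 genes that reached 1 CPM in 2 or more libraries. A gene counted as measured in a pair where either library reached 1 CPM. Log2 ratios carry a prior count of 2. Their 95% intervals are exact (Clopper-Pearson) and cover counting error only, as reads carried no molecular identifiers. A count of 0 allows up to 3 counts, between 0.136 and 0.198 CPM before scaling. Count ratios of paralogues have exact conditional intervals. Lengths and GC content are from GENCODE 29 and coordinates from RefSeq (GRCh38.p14). The GC and length trend is the sum of a spline on GC content and a spline on log2 length, each with 5 degrees of freedom. The quasi-likelihood test was fitted as stated with the results and tested on simulated counts. Its p-values rest on how far the KO effect differs between the lines, the only spread that these 4 libraries leave. The test draws the spread of each gene toward that of other genes, so a p-value does not measure that gene's own difference alone. The median total was 9.5 degrees of freedom, beside 1 residual per gene. Part of the difference between the lines may be technical. Spread between cultures of a line is not in the p-values, and nothing in the labels says how cultures were kept apart.

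The members and lists were chosen with earlier results of these data known. All core genes are named. Per list and line, the 2 highest and 2 lowest ratios among genes with at least 100 counts over the pair could be named, and 2 genes most like each core gene among those with a mean CPM of at least 10. Alternatives were DESeq2 1.42.0 size factors, no scaling, prior counts of 0.5 and 5, folds of 1.5 and 3, other filters, DESeq2 and limma-voom (limma 3.58.1) tests, no block, the trend removed, mitochondrial rows left out and the longest transcript as length. TMM over every gene with a count, and protein-coding nuclear genes only, were added after seeing the data.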

Additional observations from a re-analysis of the deposited data

Results flagged for a closer look

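NRAS had opposite directions in the lines. Its log2 ratio of KO over mock was 0.42 in OVCAR3 and -0.20 in SKOV3, and the difference between the lines was not tested. NRAS had 162 CPM in OVCAR3 KO against 121 CPM in OVCAR3 mock, and 146 CPM in SKOV3 KO against 168 CPM in SKOV3 mock. Each pair holds 1 library per group. With the GC and length trend removed, the OVCAR3 ratio was -0.073 and the SKOV3 ratio was -0.20.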

How the results depend on the processing

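With the GC and length trend removed, 1 of 6 core genes in place of 3 was 2-fold lower in OVCAR3 KO, the median was -0.57 in place of -0.86, NRAS turned to -0.073 in place of 0.42, and the OVCAR3 shifts of BRAF over ARAF and of MAP2K1 over MAP2K2 were 0.64 and 0.36. A fold of 3 also left 1 of 6, and protein-coding nuclear genes only left 2, with MAP2K1 at -0.95. TMM over every gene with a count gave a median of -1.15. The cause was not tested. Scaling moved the OVCAR3 background. The median over all measured genes was 0.16 with the TMM used, 0.04 with no scaling factor and -0.17 with TMM over every gene. The share of 2-fold calls that were lower was 40.5% with the TMM used and 56.8% with TMM over every gene. It was 52.6% with protein-coding nuclear genes only and 50.7% with the trend removed, but these shares cover protein-coding genes alone. Among protein-coding genes, the TMM used gave 2309 lower and 1655 higher, so the shares are not set against 40.5%. In SKOV3 protein-coding nuclear genes only gave 33.6% and the trend removed 38.8%, beside 48.1% over all gene types. The TMM used gave 40 lower and 73 higher among protein-coding genes in SKOV3. BRAF in OVCAR3, at 0.04, was -0.25 with TMM over every gene and -0.33 with the trend removed. No core gene was called for the knockout under any of 10 alternatives of the 4-library fit, with adjusted p between 0.921 and 1.00. The line term called 4 genes higher and 1 lower in the edgeR fit used, 123 and 63 by DESeq2, 142 and 84 with no filter, 84 and 23 with protein-coding nuclear genes only, 49 and 9 at CPM of at least 5, 1 and 1 by limma-voom, and 0 under the other 5 alternatives. No filter gave 1 gene called for the knockout. The 4-library fit sets KO beside mock within each line, and with no block by line it also called 0 genes for the knockout, with 137 at an unadjusted p under 0.05. By replicate number: No paired analysis was possible because that number is 1 in all 4 groups. With 1 library per group no replicate could be left out.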
